A study of Mus musculus with 568 samples.

Results

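The 7 genes described here, *Sycp1*, *Sycp2*, *Sycp3*, *Syce1*, *Syce2*, *Syce3* and *Tex12*, encode proteins of the synaptonemal complex and were taken by name, without use of their values. All 7 were among the 16335 genes of the bulk table and among the 15718 genes of the single-cell table. The synaptonemal complex is the protein ladder that holds homologous chromosomes together along their length during meiotic prophase, when crossovers are made. SYCP2 and SYCP3 build the lateral elements, which form on the axis of each chromosome, SYCP1 spans the gap between both axes as the transverse filament, and SYCE1, SYCE2, SYCE3 and TEX12 form the central element along the midline. In the mouse ovary, germ cells enter meiosis before birth, after they have arrived in the gonad and have responded to signals from its somatic cells, and the genes of the complex are switched on in that window.

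The bulk table holds 16 libraries in 4 groups of 4. These groups were embryonic stem cells (ESCs), epiblast-like cells (EpiLCs, made from ESCs in a step of 48 hours repeated once), and primordial germ cell-like cells (PGCLCs) that were sorted on day 5 as SSEA1+ and CD61+ and as either XGFP+ or XGFP-. Single cells were sorted from reconstituted ovaries (rOvaries), in which PGCLCs had been cultured for 6 days with 75000 somatic cells of female fetal gonads and mesonephros. By the study's methods these somatic cells came from CD1/ICR mice. All cells other than these somatic cells came from female ESCs of 1 hybrid line, 129S1/SvImJ with CAST/EiJ, which carries a truncated *Tsix* on the X chromosome from 129S1/SvImJ (X-mus), a GFP reporter on that chromosome, a tdTomato reporter on the other, and doxycycline-inducible *Prdm14*, *Blimp1* and *Tfap2c* with an rtTA at Rosa26. XGFP- PGCLCs had lost the GFP signal of X-mus and XGFP+ PGCLCs had kept it. PGCLC aggregates were grown with doxycycline, so that both PGCLC groups carried the 3 induced factors and ESCs and EpiLCs had not received the drug. In the rOvary, XGFP+ constitutive cells descended from XGFP+ PGCLCs, and XGFPhigh, XGFPintermediate and XGFPlow cells from XGFP- PGCLCs, sorted by how much GFP had come back. Single ESCs and 10 empty wells were sequenced as well. The clone of a library is not in its label, and the study's text speaks of technical replicates among the 4, so p-values measure the spread between these libraries and may be too small.

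In the 14 of 16 bulk libraries where reads could be recovered, between 29.8 M and 46.5 M reads lay on genes. Of 518 rOvary wells, 462 cells passed the quality limits, of which 88 were constitutive, 125 XGFPhigh and 249 XGFPintermediate or XGFPlow in near equal numbers (each close to 89% of its wells). All 24 single ESCs passed. Constitutive cells had a median of 354149 reads and were all sequenced in lane 2. The other rOvary populations had medians between 636623 and 645474.5 reads, with 14 to 16 cells of each in lane 2 and the other 329 in lane 3. Constitutive cells can thus be compared with the others within a lane only in lane 2, over few cells. Empty wells held at most 242 reads, none of them from the 7 genes. Germ cell markers had median summed levels of 2969 to 4271 CPM (reads of a gene scaled to all reads of the cell) in the rOvary populations and 256 CPM in single ESCs. A list of 13 gonadal somatic and endothelial markers had median summed levels of 20.3 to 57.3 CPM. It includes *Pecam1*, found in 100% of single ESCs and in 45.5% to 88% of cells of the rOvary populations, and without it, a choice made after seeing the data, the medians were 0 to 5.02 CPM. Single cells reached 25078.1 CPM in XGFPintermediate and 8538 CPM in XGFPlow, where 10 and 22 cells had no *Dazl* read.

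Positions of the genes are from GENCODE vM21 on mm10, and all 7 lie on autosomes. *Sycp1* (ENSMUSG00000027855) is at chr3:102818499-102936100 on the minus strand, *Sycp2* (ENSMUSG00000060445) at chr2:178345293-178407685 on the minus strand, and *Sycp3* (ENSMUSG00000020059) at chr10:88459569-88473236 on the plus strand. *Syce1* (ENSMUSG00000025480) is at chr7:140777229-140787852 on the minus strand, *Syce2* (ENSMUSG00000003824) at chr8:84872111-84888221 on the plus strand, *Syce3* (ENSMUSG00000078938) at chr15:89390174-89410503 on the minus strand and *Tex12* (ENSMUSG00000032065) at chr9:50556819-50561325 on the minus strand. Their joined exons are between 553 bases (*Syce3*) and 5967 bases (*Sycp2*) long. *Sycp3* shares 660 of its 1264 exon bases (52.2%) with *Chpt1*, an enzyme gene of phospholipid synthesis on the opposite strand. Whether reads were counted by strand is not given in the sources used here, so *Chpt1* is given beside *Sycp3*, whose values are uncertain to that extent.

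The sequences around an annotated start of 4 of the 7 genes hold the E-box CACGTG, a palindrome that reads the same on both strands, and they are shown because these genes are measured together below. In RefSeq windows of 250 bases before to 50 bases after a start (GRCm38.p6), *Sycp1*, *Sycp3*, *Syce2* and *Tex12* had the E-box, against 7.15% of 32851 windows of all genes. The core GCGGGAA, or TTCCCGC on the other strand, was found in windows of 3 genes, *Sycp3*, *Syce2* and *Tex12*, against 4.6% of windows. The motif CNCCTCAG, or CTGAGGNG on the other strand, was in windows of 3 genes, *Sycp1*, *Syce2* and *Tex12*, against 7.94%. No window of *Sycp2*, *Syce1* or *Syce3* held any of these motifs. The counts are of genes and the percentages of windows, and the 7 genes have 9 windows, so these are not like for like. The 9 windows held 5 to 33 CG pairs, against a median of 7 over all windows. CACGTG and GCGGGAA each contain a CG, and the part of base composition was not tested. In the printed stretches the capitals do not overlap. In the sequences below, written 5′ to 3′ on the strand of the gene up to its most upstream annotated start, and for *Syce2* as a 30-base stretch around its E-box just inside the annotated gene, capitals mark CACGTG and GCGGGAA.
*Sycp1*, upstream, chr3:102936101-102936350, minus strand: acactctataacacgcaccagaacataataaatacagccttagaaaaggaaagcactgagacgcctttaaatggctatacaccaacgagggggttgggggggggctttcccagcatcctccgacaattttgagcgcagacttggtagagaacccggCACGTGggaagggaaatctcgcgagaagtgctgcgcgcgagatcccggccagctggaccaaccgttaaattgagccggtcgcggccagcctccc
*Sycp3*, upstream, chr10:88459337-88459568, plus strand: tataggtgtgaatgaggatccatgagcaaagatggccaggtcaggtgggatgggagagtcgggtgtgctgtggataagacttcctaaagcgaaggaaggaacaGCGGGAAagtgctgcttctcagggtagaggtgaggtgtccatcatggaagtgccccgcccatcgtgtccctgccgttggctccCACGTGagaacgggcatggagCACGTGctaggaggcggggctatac
*Tex12*, upstream, chr9:50561326-50561518, minus strand: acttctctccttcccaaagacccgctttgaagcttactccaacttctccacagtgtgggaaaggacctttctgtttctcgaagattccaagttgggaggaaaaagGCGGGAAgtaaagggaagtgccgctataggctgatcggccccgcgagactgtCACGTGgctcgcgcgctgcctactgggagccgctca
*Syce2*, site, chr8:84872158-84872187, plus strand: cgtttcattcagCACGTGctcggggcgggg

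The first question the bulk libraries address is how the genes move from ESCs through EpiLCs to PGCLCs. On a per-length scale, *Syce2* stood far above the others in every group, with mean normalized counts per kilobase of exon between 1444 ± 240 in EpiLCs and 2206 ± 214 in XGFP- PGCLCs (SD, n = 4). *Sycp3* and *Syce1* followed, and *Sycp1*, *Sycp2*, *Syce3* and *Tex12* had at most 40.9 ± 14.8 normalized counts per kilobase in any group (SD, n = 4, *Syce3* in EpiLCs). The spread was wide within a structural part, as the lateral element genes *Sycp3* and *Sycp2* had 422 and 20.5 normalized counts per kilobase in XGFP+ PGCLCs and the central element genes *Syce2* and *Tex12* had 1823 and 11.8.

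**Figure D1:**
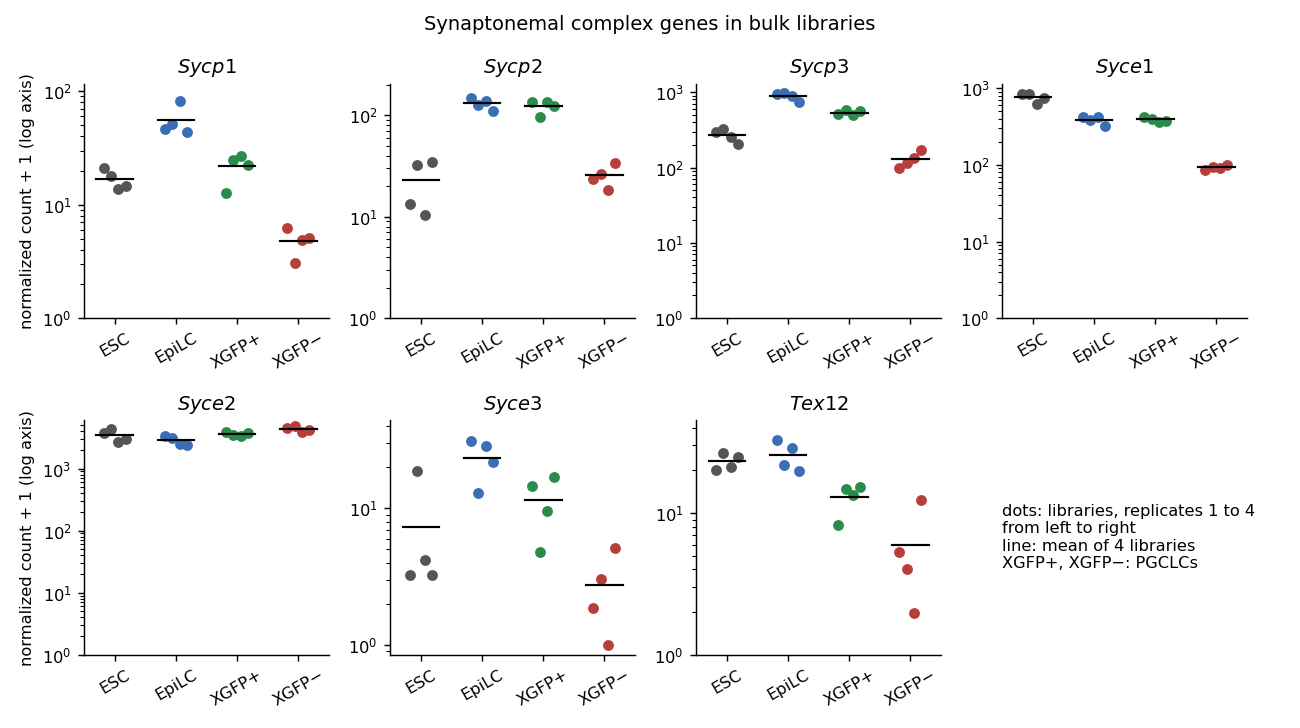
Normalized counts plus 1 (log axis) of the 7 genes in each bulk library, with dots for replicates 1 to 4 of each of the 4 groups and a line at the group mean. The 4 XGFP- libraries lie below all XGFP+ libraries for *Sycp1*, *Sycp2*, *Sycp3* and *Syce1*, and *Syce2* stays between 2425 and 4807 in all 16.

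*Sycp3*, the main lateral element gene, was measured in ESCs at 297.5, 327.1, 250.3 and 204.8 normalized counts and in EpiLCs at 955, 965, 880 and 749. It read 506, 574.5, 495 and 559 in XGFP+ PGCLCs and 97.9, 113.8, 133.7 and 170.1 in XGFP- PGCLCs. No 2 groups overlapped, and the order was EpiLCs, XGFP+ PGCLCs, ESCs, XGFP- PGCLCs. *Sycp3* rose 3.31-fold from ESCs to EpiLCs (log2 fold change 1.73 ± 0.16 SE, limma adjusted p = 1.4e-08). From EpiLCs it fell 1.66-fold to XGFP+ PGCLCs (adjusted p = 3.8e-04) and 6.95-fold to XGFP- PGCLCs (adjusted p = 9.4e-12). The smaller fall was not called by edgeR (adjusted p = 0.00577) or DESeq2 (adjusted p = 0.00109), nor in 5 of 8 fits with 1 library left out. *Chpt1*, which shares its exons, moved the other way in these steps, by -0.70, 2.12 and 2.41 on the log2 scale; its part in the *Sycp3* values was not tested.

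*Sycp2*, the other lateral element gene, was at 12.3, 31.6, 9.46 and 33.9 normalized counts in ESCs and at 148.9, 126.6, 138.1 and 108.6 in EpiLCs. XGFP+ PGCLCs had 135.1, 95.1, 135.9 and 122.7, overlapping with EpiLCs, and XGFP- PGCLCs had 22.5, 25.4, 17.3 and 32.98, overlapping with ESCs. The gene thus had 2 separate ranges, a high one in EpiLCs and XGFP+ PGCLCs and a low one in ESCs and XGFP- PGCLCs. It rose 6.54-fold from ESCs to EpiLCs (log2 fold change 2.71 ± 0.32 SE, adjusted p = 4.9e-07) and was 5.24-fold lower in XGFP- PGCLCs than in EpiLCs (adjusted p = 1.6e-06). Between EpiLCs and XGFP+ PGCLCs its log2 difference was -0.099 ± 0.32 (adjusted p = 0.787).

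*Sycp1*, the transverse filament gene, was low throughout, at 20.2, 16.8, 12.6 and 13.6 normalized counts in ESCs and 45.1, 50.4, 81.5 and 42.5 in EpiLCs. XGFP+ PGCLCs gave 11.8, 23.8, 25.8 and 21.5, a range that overlaps ESCs, and XGFP- PGCLCs gave 5.2, 2.03, 3.85 and 4.12, below every other library. Its rise to EpiLCs was 3.26-fold (log2 fold change 1.71 ± 0.30 SE, adjusted p = 6.5e-05), and it fell 11.6-fold from EpiLCs to XGFP- PGCLCs (adjusted p = 3.9e-09). The fall from EpiLCs to XGFP+ PGCLCs was 2.58-fold (adjusted p = 4.9e-04). It was not called by edgeR (adjusted p = 0.00455) or DESeq2 (adjusted p = 0.0101), nor after quantile normalization (0.0029), in the 8 libraries alone (0.00101), with the replicate block (0.00109) or in 4 of 8 fits with 1 library left out.

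The central element genes did not share 1 pattern. *Syce1*, whose protein links the transverse filaments to the midline, was highest in ESCs, at 831, 854, 631 and 743 normalized counts. It stood at 425, 385, 418 and 320 in EpiLCs and at 420, 400.5, 367 and 379 in XGFP+ PGCLCs, which overlap, and at 84.9, 92.5, 89.5 and 99.98 in XGFP- PGCLCs. *Syce1* fell from ESCs to EpiLCs by 0.98 on the log2 scale (SE 0.11, adjusted p = 2.8e-07), the step in which *Sycp1*, *Sycp2* and *Sycp3* rose.

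*Syce2*, whose protein assembles with TEX12 into the long fibres of the central element, was the most abundant of the 7 genes. Its libraries held 3671, 4348, 2656 and 3005 normalized counts in ESCs, 3379, 3098, 2463 and 2425 in EpiLCs, 3848, 3456, 3365 and 3685 in XGFP+ PGCLCs and 4502, 4807, 3814 and 4240 in XGFP- PGCLCs. Neighbouring groups overlapped except XGFP- PGCLCs and EpiLCs. That difference, 1.54-fold higher in XGFP- PGCLCs (log2 fold change 0.62 ± 0.13 SE), was the only rise among the 7 genes in PGCLCs against EpiLCs that passed the test (adjusted p = 2.6e-04), and it was not called by edgeR (adjusted p = 0.00509) or DESeq2 (adjusted p = 0.00154), nor without XGFP- replicate 1 or 2 or EpiLC replicate 3 or 4, where adjusted p lay between 0.00107 and 0.00147.

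*Tex12* and *Syce3* were near the lower limit of detection. *Tex12* ranged from 19.1 to 25.7 normalized counts in ESCs, from 18.8 to 31.7 in EpiLCs, from 7.25 to 14.3 in XGFP+ PGCLCs and from 0.962 to 11.3 in XGFP- PGCLCs. *Syce3* ranged from 2.25 to 17.8 in ESCs, from 11.9 to 30.1 in EpiLCs, from 3.76 to 16.1 in XGFP+ PGCLCs and from 0 to 4.12 in XGFP- PGCLCs. Both were lower in XGFP- PGCLCs than in EpiLCs, *Tex12* by 5.28-fold (adjusted p = 3.0e-05) and *Syce3* by 9.64-fold (adjusted p = 6.1e-05) on the log2 scale of normalized count plus 1. In XGFP+ PGCLCs neither passed the test against EpiLCs (adjusted p = 0.0337 for *Tex12* and 0.0967 for *Syce3*).

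Counted over the 7 genes, of which all 7 passed the filter on low values, 3 rose and 1 fell from ESCs to EpiLCs and 3 did not pass. Of all 16281 genes tested, 47.8% were called in that step, 24.9% higher and 22.9% lower, so a count of 4 of 7 is close to what all genes gave. The groups did not overlap for 4 of the 7 genes, against 60.7% of all genes. From EpiLCs to XGFP- PGCLCs 6 fell and 1 rose, where 61.9% of all genes were called, 29.9% higher and 31.9% lower. All 7 had groups that did not overlap, against 73.5% of all genes. The median log2 change of the 7 genes there was -2.40, against -0.0259 over all genes. From EpiLCs to XGFP+ PGCLCs 2 fell and 5 did not pass, where 57.3% of all genes were called and 29.5% were called lower. The groups did not overlap for 3 of the 7 genes, against 69.9% of all genes. Those 2 calls, *Sycp1* and *Sycp3*, depended on single libraries. *Sycp1* was no longer called without XGFP+ replicate 1 or 4 or EpiLC replicate 2 or 3, and *Sycp3* without XGFP+ replicate 1 or 3 or EpiLC replicate 1, 2 or 3. Against ESCs, 2 genes (*Sycp2* and *Sycp3*) were higher and 1 (*Syce1*) was lower in XGFP+ PGCLCs, where 49.9% of all genes were called, 25% higher and 24.9% lower. In XGFP- PGCLCs 4 (*Sycp1*, *Sycp3*, *Syce1* and *Tex12*) were lower, where 59.4% were called and 29.6% were called lower. The groups did not overlap for 4 of the 7 genes in each of these comparisons, against 62.4% and 70.7% of all genes. The 6 comparisons share groups, so that 1 group's level enters several of them.

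The second question is whether PGCLCs that had lost the GFP signal of X-mus differed from those that had kept it. Of the 7 genes, 4 were lower in XGFP- PGCLCs, both lateral element genes, the transverse filament gene and, of the central element genes, *Syce1* alone. *Sycp3* was 4.19-fold lower (log2 fold change -2.07 ± 0.16 SE, adjusted p = 8.8e-09), *Sycp2* 4.89-fold (-2.29 ± 0.32, adjusted p = 1.2e-05), *Sycp1* 4.50-fold (-2.17 ± 0.30, adjusted p = 1.2e-05) and *Syce1* 4.24-fold (-2.08 ± 0.11, adjusted p = 1.4e-10, limma). The 4 libraries of each group did not overlap for these 4 genes, which 45.7% of all genes also showed. The count of 4 called, all lower, compares with 23.8% of all genes called and 12.5% called lower, and the median log2 difference of the 7 genes was -2.08 against 0.0134 over all genes. For *Syce3* (-2.16 ± 0.59, adjusted p = 0.0058) and *Tex12* (-1.40 ± 0.41, adjusted p = 0.00876) the test was not passed and libraries overlapped. *Tex12* was called without XGFP- replicate 4, the library in which it was highest (adjusted p = 3.1e-04). *Syce2* had a log2 difference of 0.271 ± 0.13 (adjusted p = 0.0937), and *Chpt1* of 0.283 ± 0.11 (adjusted p = 0.0414).

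Germ cell markers moved in the same comparison. *Dazl*, an RNA-binding protein that licenses germ cells for gametogenesis, was at 2875, 4941, 3276 and 8074 normalized counts in XGFP+ PGCLCs and at 128.3, 297.7, 161.6 and 802.9 in XGFP- PGCLCs, 16.5-fold lower (adjusted p = 3.4e-07). The library with most *Dazl* among XGFP- PGCLCs, replicate 4, was also the one with most *Sycp2*, *Sycp3*, *Syce1*, *Syce3* and *Tex12*, but not *Sycp1* or *Syce2*. Among XGFP+ PGCLCs replicate 4 had most *Dazl* as well. Of the 7 genes, only *Syce3* and *Tex12* were highest in that library. Of 7 germ cell markers 3 were lower (*Dazl*, *Ddx4* and *Dppa3*), 2 were higher (*Dnd1* and *Kit*) and 2 did not pass. Of 6 markers of meiotic entry and recombination in the bulk table, 2 were higher in XGFP- PGCLCs (*Rec8* and *Spo11*), 1 was lower (*Hormad1*) and 3 did not pass. Over all genes, 23.8% were called. Of the 4 epiblast markers, 1 was higher and 1 lower, with a median log2 difference of -0.458. Of 5 pluripotency markers 2 were lower (*Morc1* and *Zfp42*), and of 10 somatic markers 3 were higher (*Fst*, *Col1a2* and *Cdh5*) and 2 lower (*Amhr2* and *Pdgfra*). The part of these markers in the result was not tested. In bulk RNA, fewer cells that carry a transcript and less transcript per cell cannot be told apart.

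Other genes of the chromosome axis, of synapsis and of telomere attachment, a list of 16 genes of which 14 are in the bulk table, gave a mixed picture between XGFP- and XGFP+ PGCLCs. 5 were lower (*Hormad1*, *Fkbp6*, *Ccnb1ip1*, *Terb2* and *Majin*), 1 was higher (*Rec8*) and 8 did not pass, 6 of 14 called against 23.8% of all genes, with a median log2 difference of -0.439. *Hormad1*, an axis protein that monitors synapsis, had the largest change, from 702, 924, 583 and 910 normalized counts in XGFP+ to 21.7, 40.6, 16.4 and 55.7 in XGFP- PGCLCs (24.7-fold lower, adjusted p = 3.4e-09). *Majin*, which tethers telomeres to the nuclear envelope, was 20.4-fold lower (adjusted p = 3.7e-07), with 31.4 to 55.1 against 0 to 4.06 normalized counts. *Rec8*, the meiotic cohesin subunit, was 1.71-fold higher in XGFP- PGCLCs (adjusted p = 1.1e-04). *Six6os1*, the central element gene outside the 7, had 1657, 3438, 1627 and 3158 normalized counts in XGFP+ and 1688, 2164, 1623 and 2403 in XGFP- PGCLCs, with adjusted p = 0.389. Of these 14 genes, 3 rose and 1 fell from ESCs to EpiLCs, a smaller share than the 47.8% called over all genes. From EpiLCs, 3 rose and 4 fell to XGFP+ PGCLCs (57.3% of all genes called), and 1 rose and 7 fell to XGFP- PGCLCs (61.9%). Against ESCs, 1 was higher and 2 were lower in XGFP+ PGCLCs (49.9%), and 1 was higher and 6 were lower in XGFP- PGCLCs (59.4%). With rises and falls counted as 1 number, none of these 5 counts exceeded the share over all genes. By direction, the falls in XGFP- PGCLCs did. Against EpiLCs 7 of 14 were lower, where 31.9% of all genes were called lower. Against ESCs 6 of 14 were lower, where 29.6% were. The 1 of 14 higher in each of these compares with 29.9% and 29.8% of all genes called higher.

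In single rOvary cells the 7 genes were found in very different shares of cells. Over the 462 cells, *Syce2* had at least 1 read in 95.5%, *Syce1* in 90.04%, *Sycp3* in 74.5%, *Sycp1* in 61.9%, *Tex12* in 56.5%, *Sycp2* in 38.5% and *Syce3* in 21.7%. Summed over these cells and divided by exon length, *Syce2* (213 CPM per kilobase), *Sycp3* (176) and *Syce1* (166) were highest and *Sycp2* (28.7) and *Syce3* (20.1) lowest, so that the order of detection was close to the order of level per length. By summed CPM without regard to length, *Sycp1* (272 CPM) came second, after *Syce2* (419.8 CPM), and *Sycp2* (171 CPM) before *Tex12* (101.6 CPM). Detection depends on level, and an order of onset cannot be told apart from it at a single time point. Each sorted population is 1 sample here, since no culture or animal is named for a cell. The intervals below are 95% exact binomial (Clopper-Pearson) for shares and exact Poisson for summed CPM, cover counting error only, and no test between populations was made.

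**Figure D2:**
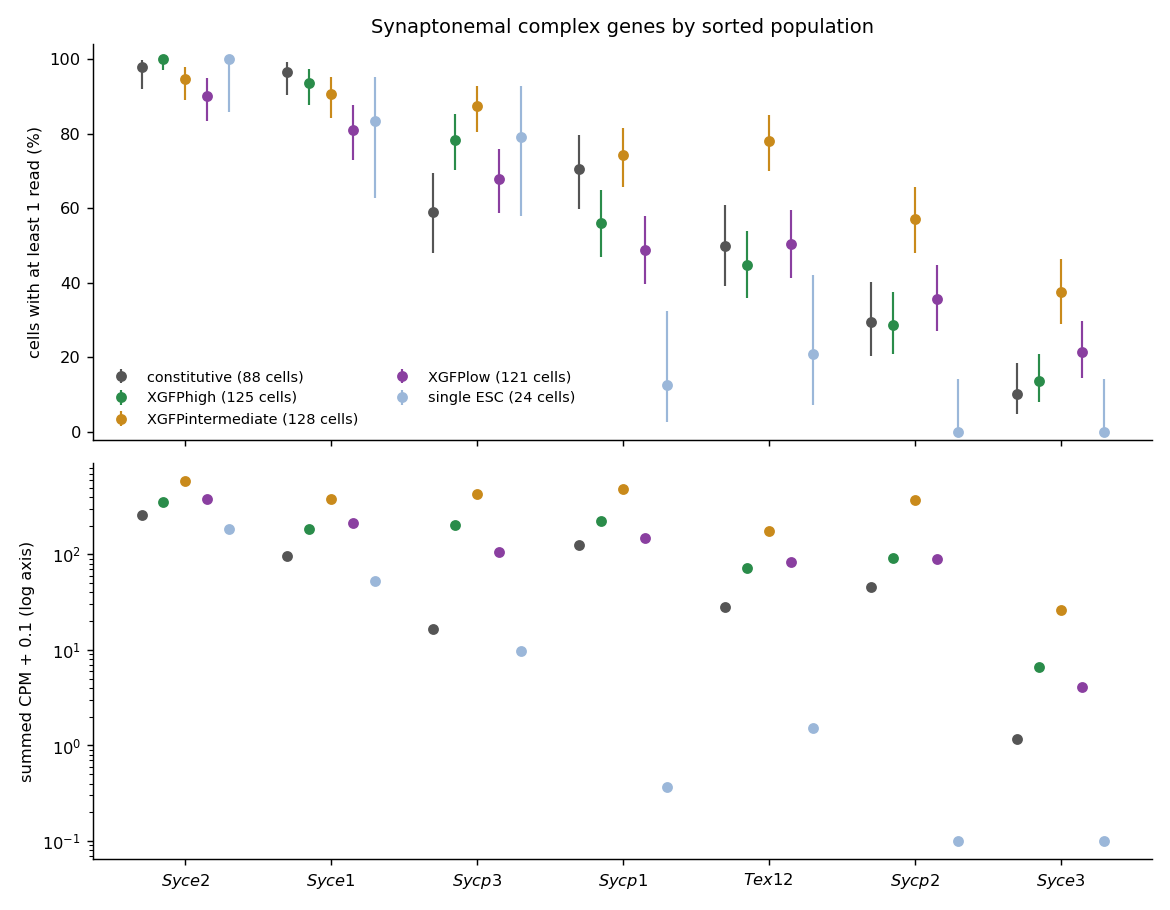
Share of cells with at least 1 read (upper panel, bars are 95% exact binomial intervals) and summed CPM plus 0.1 on a log axis (lower panel) for the 7 genes in the 4 rOvary populations and single ESCs. XGFPintermediate cells have the highest summed CPM for all 7 genes, and the highest shares for *Sycp3*, *Sycp1*, *Tex12*, *Sycp2* and *Syce3*.

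*Sycp3* was detected in 87.5% of XGFPintermediate cells (interval 80.5 to 92.7%), 78.4% of XGFPhigh (70.2 to 85.3%), 67.8% of XGFPlow (58.7 to 75.98%) and 59.1% of constitutive cells (48.1 to 69.5%). Without cells lacking a *Dazl* read, a setting chosen after seeing the data, *Sycp3* was in 94.9% of XGFPintermediate, 81.8% of XGFPlow and 78.05% of XGFPhigh cells, so that the order of XGFPhigh and XGFPlow turned. Its summed level over all cells was 425 CPM in XGFPintermediate, 204 in XGFPhigh, 107.1 in XGFPlow and 16.5 CPM in constitutive cells, a 25.8-fold span. Most of this came from few cells, since the 10% of XGFPhigh cells with most *Sycp3* reads held 94.7% of them, against 63.9% in XGFPintermediate. *Chpt1* had summed levels between 59.5 and 91.3 CPM in the 4 populations and 20.9 CPM in single ESCs.

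*Sycp2* was found in 57.03% of XGFPintermediate cells (48.0 to 65.7%) and in 28.8% to 35.5% of cells of the other populations, at 374 CPM against 45.96 to 91.6 CPM. *Sycp1* was found in 74.2% of XGFPintermediate (65.7 to 81.5%) and 70.5% of constitutive cells (59.8 to 79.7%), whose intervals overlap, and in 56% of XGFPhigh and 48.8% of XGFPlow cells, an order that also turned without cells lacking a *Dazl* read (56.1% and 59.6%). Its level did not follow its share, since constitutive cells had 124.3 CPM against 488 CPM in XGFPintermediate. In constitutive cells the transverse filament gene *Sycp1* was thus found more often than the lateral element gene *Sycp3*, the reverse of the other 3 populations.

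Among central element genes, *Tex12* was detected in 78.1% of XGFPintermediate cells (69.96 to 84.95%) and in 44.8% to 50.4% of the others. *Syce3* was detected in 37.5% (29.1 to 46.5%) against 10.2% to 21.5%, and its summed level was 26.1 CPM in XGFPintermediate and 1.08 CPM in constitutive cells. *Syce1* and *Syce2* were near saturation, with shares from 80.99% and 90.1% in XGFPlow to 96.6% in constitutive cells for *Syce1* and 100% in XGFPhigh cells for *Syce2*. Their lower shares in XGFPlow went with 22 cells without a *Dazl* read there.

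Single ESCs, all sequenced in lane 4 at a median of 1103780 reads, held *Syce2* in 24 of 24 cells at 184 CPM, *Syce1* in 20 at 52.9 CPM and *Sycp3* in 19 at 9.61 CPM. *Sycp1* had 7 reads in 3 of the cells and *Tex12* had 37 reads in 5. *Sycp2* and *Syce3* had 0 reads in 24 cells, which allows a share of cells with a read of up to 12.5% (3 counts of 24), or 14.25% by the exact interval. Shares with at least 1 read depend on depth, and the ESCs were the most deeply sequenced cells. After thinning, *Syce2*, *Syce1* and *Sycp3* were found in 100%, 78.3% and 47.8% of 23 ESCs and *Sycp1* and *Tex12* in 0. As a second background, chosen after values were seen, the 38 rOvary cells without a *Dazl* read had *Sycp1* in 5.26%, *Sycp2* in 2.63%, *Sycp3* in 7.89% and *Syce3* in 0 of 38 cells, but *Syce1* in 21.1% and *Syce2* in 50%. These cells had a median of 613698 reads, close to the 599183.5 of cells with *Dazl* reads, and 20 of them had over 100 CPM of somatic markers other than *Pecam1*, against 6 of the 424 cells with *Dazl* reads.

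Depth and lane touch these values. After thinning each cell to 100000 reads, XGFPintermediate still had the highest share for 5 of 7 genes, and *Sycp3* was at 83.6% there, 60.3% in XGFPlow, 56.8% in XGFPhigh and 43.2% in constitutive cells. In the 329 cells of lane 3 (XGFPhigh, XGFPintermediate and XGFPlow), XGFPintermediate had the highest summed CPM for 7 of 7 genes. In lane 2, with 14, 16 and 15 cells of these populations, it was highest for 0 of 7 genes, and below XGFPlow for all 7. *Sycp3* there read 58.4 CPM in XGFPintermediate, 140.6 in XGFPlow, 125.7 in XGFPhigh and 16.5 CPM in the 88 constitutive cells. The higher level of XGFPintermediate cells was thus seen in lane 3 and not in lane 2. Constitutive cells had the lowest level in lane 2 for *Sycp3*, *Syce1*, *Syce2* and *Tex12*, but not for the other genes. There they lay above XGFPintermediate cells for *Sycp1* (124.3 against 76.9 CPM), *Sycp2* (45.96 against 10.66 CPM) and *Syce3* (1.08 against 0.447 CPM).

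The number of the 7 genes found in a cell gives their co-detection. At least 5 were found in 72.7% of XGFPintermediate cells (64.1 to 80.2%), 43.8% of XGFPlow (34.8 to 53.1%), 38.6% of constitutive (28.4 to 49.6%) and 35.2% of XGFPhigh cells (26.9 to 44.3%), and in 0 of 24 ESCs. All 7 were found in 67 cells, of which 38 were XGFPintermediate, 18 XGFPlow, 7 XGFPhigh and 4 constitutive. None of the 38 was in lane 2, where 3 of 15 XGFPlow cells had all 7. In lane 2 the shares with at least 5 genes were 50% in XGFPintermediate, 46.7% in XGFPlow, 38.6% in constitutive and 28.6% in XGFPhigh cells, with intervals that overlap. Cells with none of the 7 genes numbered 7 in XGFPintermediate and 11 in XGFPlow, and none of these 18 had a *Dazl* read.

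**Figure D3:**
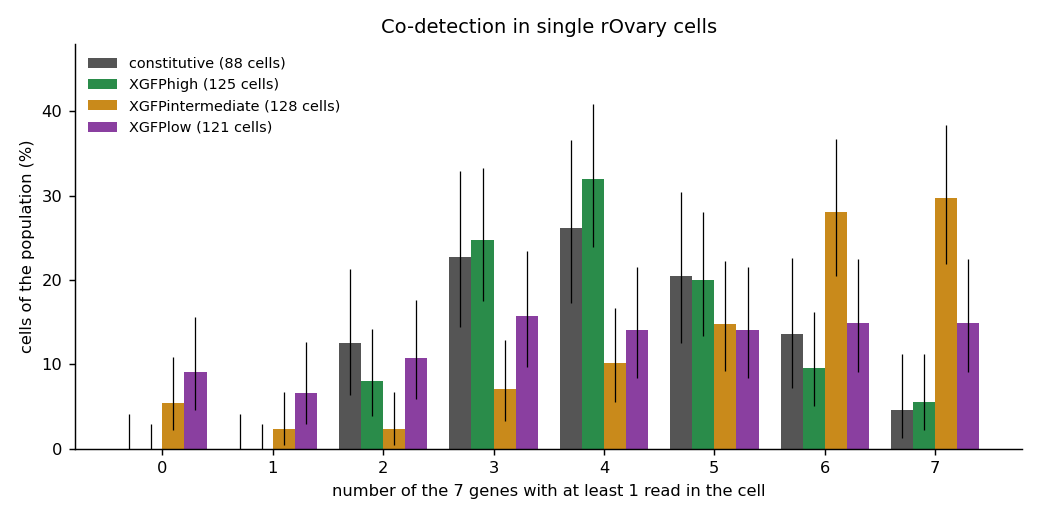
Share of cells in each rOvary population (bars, with 95% exact binomial intervals) by the number of the 7 genes with at least 1 read. XGFPintermediate cells peak at 6 and 7 genes (28.1% and 29.7%), constitutive and XGFPhigh cells at 4 genes (26.1% and 32%), and XGFPlow cells spread from 0 to 7.

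Detection of the genes was partly nested. Ranked by the share of cells with reads, the order was *Syce2*, *Syce1*, *Sycp3*, *Sycp1*, *Tex12*, *Sycp2* and *Syce3*, and 315 of 462 cells (68.2%) held no gene without all those before it. Cells with none or all of the genes satisfy this by construction. Among the 377 cells with 1 to 6 genes, 230 (61.01%) did so, and the others broke the order. The order was read from the same cells, so these shares are descriptions. *Syce3* was never found without *Syce2*, and in 3 of 100 cells without *Syce1*. *Sycp2* was found without *Syce1* in 1 cell, while *Syce1* was found without *Sycp2* in 239. Between *Sycp1* and *Tex12* the order was weak, with 80 cells that held only *Sycp1* of this pair and 55 that held only *Tex12*. In constitutive cells *Sycp1* came before *Sycp3*, and in XGFPintermediate and XGFPlow cells *Tex12* came before *Sycp1*, which after thinning it no longer did.

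**Figure D4:**
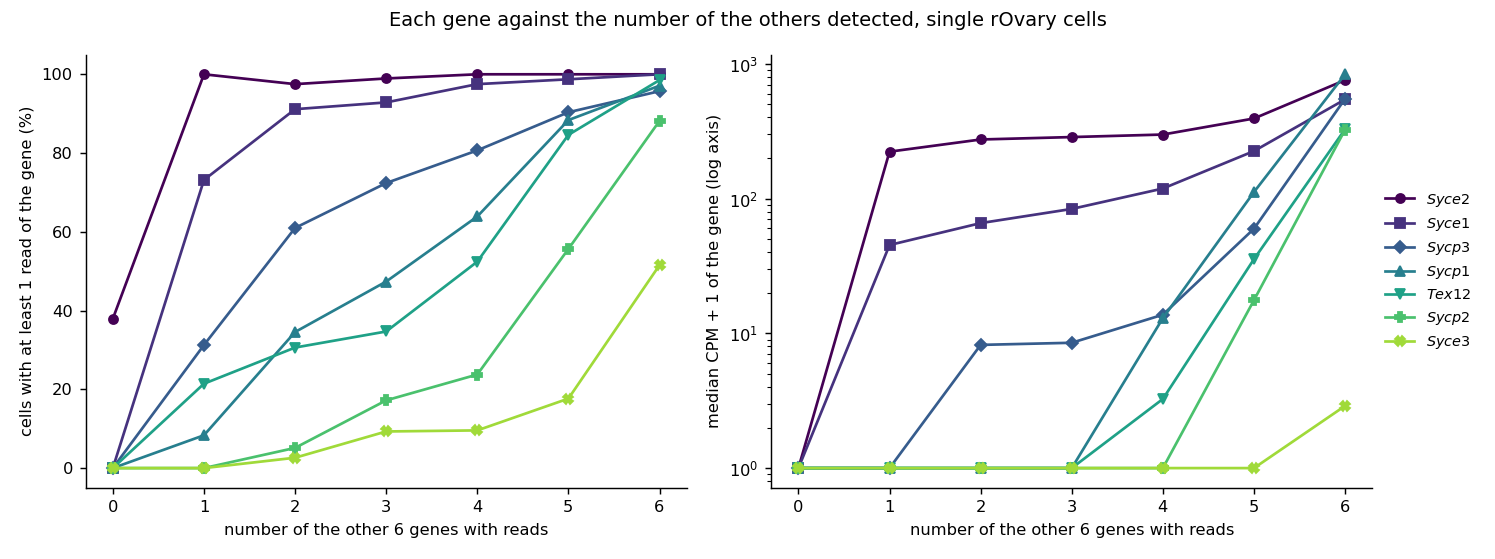
Share of the 462 rOvary cells with at least 1 read of a gene (left) and its median CPM plus 1 on a log axis (right), by how many of the other 6 genes have reads in the same cell. *Syce2* and *Syce1* are found in most cells from 1 or 2 others on, and the medians of *Sycp1*, *Sycp2*, *Sycp3* and *Tex12* climb steeply between 4 and 6 others.

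The share of cells with a gene was then set against how many of the other 6 had reads in the same cell. With 2 others present (38 to 82 cells, depending on the gene), *Syce2* was found in 97.5% of cells, *Syce1* in 91.1%, *Sycp3* in 60.98%, *Sycp1* in 34.5%, *Tex12* in 30.6%, *Sycp2* in 5.13% and *Syce3* in 2.63%. With 5 others, *Sycp3* was found in 90.4%, *Sycp1* in 88.4%, *Tex12* in 84.6% and *Sycp2* in 55.6% of cells, and *Syce3* in 17.6%. *Syce3* reached 51.5% only with all 6 others.

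Levels were higher mainly in cells with most of the genes. The median *Sycp3* level was 12.8 CPM in cells with 4 of the others, 58.8 CPM with 5 and 549 CPM with 6. *Sycp1* went from 11.97 to 110.9 and 836 CPM over the same steps, *Sycp2* from 0 to 16.6 and 324 CPM, and *Tex12* from 2.26 to 34.5 and 326 CPM. *Syce1* went from 117.8 to 224 and 544 CPM and *Syce2* from 298 to 392 and 757 CPM, smaller steps from higher levels. The 67 cells with all 7 genes, 14.5% of cells, held 80.3% of all *Sycp3* reads, 80.3% of *Sycp2*, 72.6% of *Sycp1*, 64.9% of *Tex12* and 91.97% of *Syce3* reads, but 48.1% of *Syce1* and 31.9% of *Syce2* reads. These cells were chosen by reads of each gene, so a high share is partly built in. This holds most for *Syce3*, which had reads in only 100 cells. Within those 67 cells *Sycp3* still ranged from 5.42 to 7251 CPM. Depth moved in the same direction, with median reads per cell of 562353 with 4 of the 7 genes, 599087 with 5, 601696 with 6 and 631782 with 7, and its part in these levels was not tested.

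Across the 462 cells the 21 pairs of genes had Spearman correlations of CPM between 0.34 (*Sycp1* with *Syce2*) and 0.679 (*Sycp1* with *Sycp2*), with a median of 0.57. These are descriptions over cells that share libraries and lanes. The median over pairs was 0.714 in XGFPintermediate, 0.516 in XGFPlow, 0.309 in XGFPhigh and 0.224 in constitutive cells. Cells without a *Dazl* read were kept in, 10 in XGFPintermediate, 22 in XGFPlow, 2 in XGFPhigh and 4 in constitutive cells. Their part in the correlations was not tested. The highest pair in XGFPintermediate was *Sycp1* with *Tex12* (0.839), and the same pair gave 0.438 in constitutive cells. *Sycp3* and *Syce1* correlated at 0.714 in XGFPintermediate and at -0.156 in constitutive cells, which also had fewer reads.

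Several other meiotic and germ cell genes changed along the number of the 7 genes found in a cell. *Stra8*, the retinoic acid-induced gene needed for meiotic entry, had a median of 269 CPM in the 37 cells with 2 genes, 760 CPM in the 93 with 4 and 2994 CPM in the 78 with 6, and stayed at 3133 CPM in the 67 with 7. *Meiosin*, the partner of STRA8, had a median of 0 with 6 genes and 140 CPM with 7. *Dmc1*, the meiotic strand-exchange enzyme, went from 39.3 CPM with 6 to 199 CPM with 7, and *Prdm9*, which marks recombination hotspots, from 0 to 63.7 CPM. Over the same step *Spo11* went from 0 to 19.8 CPM and *Hormad1* from 282 to 691 CPM. *Rec8* went the other way there, from 74.1 CPM with 6 genes to 44.65 CPM with 7, and was found in 92.3% and 73.1% of these cells. The germ cell marker *Dppa3* had medians of 1171 CPM with 4 genes, 193 CPM with 6 and 0 with 7, and the pluripotency marker *Nanog* of 81.3 CPM, 0 and 0. Median *Dazl* levels went from 570 CPM with 2 genes to 3792 CPM with 7. Of the 16 axis and synapsis genes, a median of 8 were found in cells with 2 of the 7 genes, 10 with 4, 12 with 6 and 14 with 7.

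By population, 14 of these 16 genes had their highest summed level in XGFPintermediate, 1 in XGFPhigh and 1 in constitutive cells. These levels were not split by lane, and for the 7 genes XGFPintermediate was highest in lane 3 and not in lane 2. *Smc1b*, a meiotic cohesin gene, summed to 1047 CPM in XGFPintermediate, 589 in XGFPlow, 284 in XGFPhigh and 169 in constitutive cells. *Six6os1* had 401, 167.5, 145.8 and 110.7 CPM in the same order. *Hormad1* spanned less, with 412, 207, 323 and 199 CPM.

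The genes whose level was most like that of *Sycp3* over the 462 cells, among 13395 genes with reads in at least 20 of them, were *Smc1b* (Spearman 0.738), *Zcwpw1* (0.717), *1700029F09Rik* (0.702), *Stk31* (0.697) and *Mael* (0.68). Most like the number of the 7 genes found were *Slc25a31* (0.753), *Smc1b* (0.732), *8030474K03Rik* (0.718), *Mael* (0.715) and *Stk31* (0.689). Within populations the likeness of *Smc1b* to *Sycp3* was 0.849 in XGFPintermediate, 0.775 in XGFPlow, 0.439 in XGFPhigh and 0.247 in constitutive cells. *Chpt1* had a Spearman correlation of 0.0943 with *Sycp3*, rank 3217 of these genes.

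The X-linked allelic ratio of a cell, the mean over its X-linked genes of the share of reads from X-mus, was deposited for 417 of the 462 cells, and is near 0.5 where both X chromosomes are read alike. It did not enter the choice of genes. In XGFPlow cells its median was 0.04 in the 12 cells with at most 1 of the 7 genes, 0.282 in the 18 with 2 to 3, 0.301 in the 24 with 4 to 5 and 0.323 in the 34 with 6 to 7. In XGFPintermediate it was 0.0615 in 3 cells with at most 1 gene, 0.321 in 12 cells with 2 to 3, 0.329 in 30 with 4 to 5 and 0.352 in 74 with 6 to 7. Constitutive cells gave 0.475, 0.478 and 0.488 over the last 3 classes and XGFPhigh cells 0.47, 0.478 and 0.461.

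**Figure D5:**
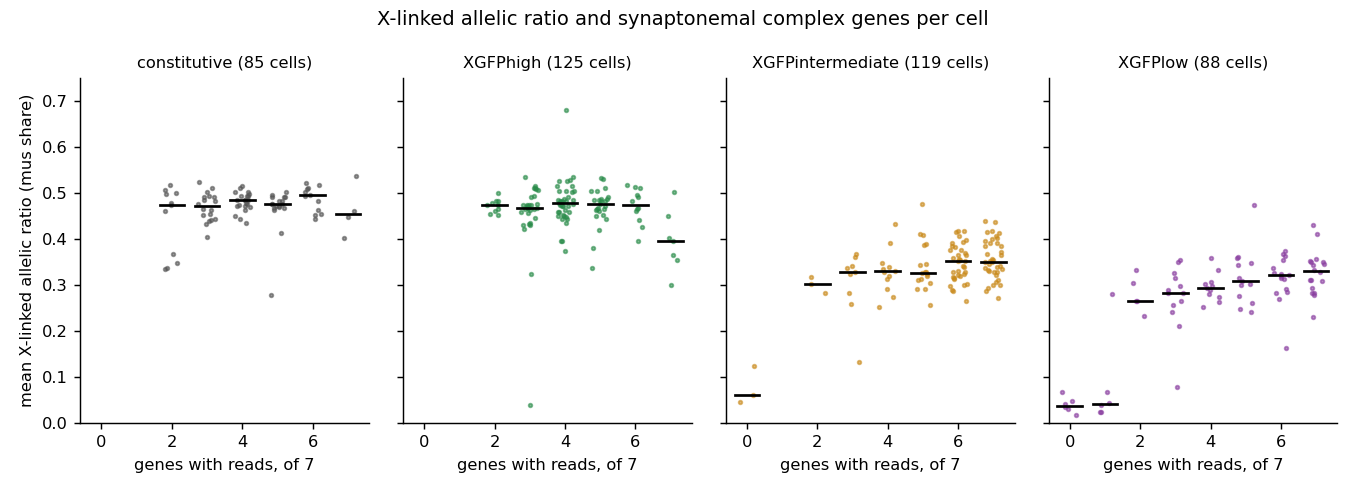
Mean X-linked allelic ratio (share of X-mus reads) of single cells against the number of the 7 genes with reads, for each rOvary population, with a line at the median of each class of at least 3 cells and points spread sideways for clarity. XGFPlow and XGFPintermediate cells with 2 or more genes drift upward from medians near 0.3, while most constitutive and XGFPhigh cells lie near 0.47. Of the few XGFPhigh cells with all 7 genes, most lie lower.

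Cells with at most 1 of the 7 genes numbered 29, of which 28 had no *Dazl* read. The median somatic marker sum, without *Pecam1*, was 1723 CPM in the 11 cells with 1 gene and 40.7 CPM in the 18 with none, against medians of 0 to 1.31 CPM in cells with 2 to 7 genes. Without these cells, the Spearman correlation of the ratio with the number of genes was 0.361 in 76 XGFPlow cells, 0.29 in XGFPintermediate cells (3 left out), 0.104 in 85 constitutive cells and -0.0421 in 125 XGFPhigh cells, as descriptions over cells of 1 sample each. The step between classes was small beside the spread, as the quartiles of XGFPintermediate cells were 0.322 and 0.386 with 6 to 7 genes and 0.312 and 0.347 with 4 to 5 genes.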

How the data were processed

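Bulk total RNA was sequenced from 16 libraries (4 per group), and full-length SMART-seq RNA from 552 wells (an updated SMART-seq2 protocol per the labels, a SMART-Seq v5 kit per the study's methods). The deposited bulk signal values are normalized counts that the authors made with STAR alignment to masked mm10, WASP filtering, HTSeq 0.6.1 and DESeq2 1.16 size factors. The deposited single-cell values are raw read counts per gene, without molecular identifiers, on an Ensembl annotation, with alignment as for bulk. The deposited X-linked allelic ratios are fractions of X-mus reads, for 219 genes in 440 cells. A bulk allelic table without the 7 genes was not used, nor were its 4 columns of another study.

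Bulk genes with a mean normalized count above 10 (16281) were tested with limma 3.58.1 (limma-trend, log2 of normalized count plus 1, 16 libraries, Benjamini-Hochberg FDR below 0.001). Adjusted p-values are over all genes tested, and fold changes, on the scale of normalized count plus 1, understate changes of low genes. Whole reads were recovered from 14 libraries (100% of values within 0.01 of a whole read) for edgeR 4.0.16 and DESeq2 1.42.0 as alternatives. EpiLC replicates 2 and 3 were left out there, because their step was too close to 1 to be recognized. Tested on simulated data for XGFP- against XGFP+ PGCLCs with 200 changed genes among 16108, limma recovered 93% of 2-fold and 100% of 4-fold changes with 1 false call. The simulation gave every gene the same dispersion of 0.01. It changed only genes above a minimum mean, which *Syce3* and *Tex12* lay below. These rates thus do not carry over to low genes or to genes with a wider spread. In the PGCLC groups, deviations from the group means correlated between same-numbered libraries at 0.135 to 0.307, so that the numbers pair these libraries, which comes from the data and not from the labels. With the replicate number as a block no gene's call changed in that comparison.

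Cells were kept with at least 4000 genes, 10000 reads and at most 5% mitochondrial reads. 1 cell was sorted per well, no doublet caller was run, and 0 kept cells had identical counts. CPM are relative to all reads of a cell or, summed, of a population. Genes and lists were chosen with earlier results of these data known. Named outside the 7 are *Six6os1* and the 2 axis genes with the largest called change between XGFP- and XGFP+ PGCLCs, and the 5 genes most like *Sycp3* and most like the number of genes found. *Rec8*, *Smc1b*, *Hormad1* and *Chpt1* in single cells and the markers by number of genes were added after their values were seen. Sequences around the starts are from RefSeq (GRCm38.p6), with windows for 7 of 7 genes. Tools also were Python 3.11.15, scipy 1.17.1 and matplotlib 3.10.9.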

Additional observations from a re-analysis of the deposited data

Results flagged for a closer look

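*Syce3* in ESCs stood out because replicate 2, at 17.8 normalized counts, lay far from replicates 1, 3 and 4, at 2.25, 3.15 and 2.26. On the log2 scale its gap to the nearest library was 0.859 of the whole range of the 4, above Dixon's 95% limit for 4 samples. This was 1 of 28 gene and group combinations examined, and chance flags about 1 in 20. Without that library, the mean of *Syce3* over the remaining libraries fell under the filter on low values, and no test was made.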

How the results depend on the processing

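The counts of called genes (of 7) kept within 1.5 times of their main value in most settings. Requiring a mean normalized count above 100 leaves only *Sycp3*, *Syce1* and *Syce2* in the test, and gave 2 calls instead of 4 for EpiLCs against ESCs, 1 instead of 2 for XGFP+ PGCLCs against EpiLCs, 3 instead of 7 for XGFP- PGCLCs against EpiLCs, and 2 instead of 4 for XGFP- PGCLCs against XGFP+ PGCLCs and against ESCs. The least stable count was that of XGFP+ PGCLCs against EpiLCs, with 2 calls. It was 1 in the 8 libraries alone, after quantile normalization and with the replicate number as a block, 4 at an FDR below 0.05, and 0 to 2 when 1 library was left out (0 by limma without XGFP+ replicate 1 or EpiLC replicate 2 or 3, with 2 to 5 genes at an unadjusted p under 0.05). There, edgeR and DESeq2 on recovered reads gave 0 calls each, with 3 of 7 genes at an unadjusted p under 0.05 in each. Leaving out 1 library gave 4 to 5 calls for XGFP- against XGFP+ PGCLCs and 5 to 7 for XGFP- PGCLCs against EpiLCs. Differences that were never called changed sign: after quantile normalization *Tex12* in EpiLCs against ESCs (-0.23 on the log2 scale) and *Sycp2* in XGFP+ PGCLCs against EpiLCs (0.10), and with 1 library left out *Sycp2* (range -0.184 to 0.016) and *Syce1* (-0.064 to 0.071, with -0.010 without XGFP+ replicate 1) in XGFP+ PGCLCs against EpiLCs and *Syce2* in XGFP+ PGCLCs against ESCs (-0.020 to 0.217). The cause was not tested. For groups other than the PGCLC pair the replicate numbers were not shown to pair libraries (correlations of -0.0105 to 0.16), and the block lost only the *Sycp1* call given above.

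In single cells, the number of genes with the highest share in XGFPintermediate was 5, and 2 in lane 2 alone. The share of cells with at least 5 genes moved beyond its interval in constitutive cells (15.9% at 5 reads, 18.2% at 10 CPM and 27.3% thinned), in XGFPhigh (24% at 5 reads, 20% at 10 CPM and 20.8% thinned), in XGFPintermediate (50% in lane 2) and in XGFPlow (58.2% with ln-normalized *Dazl* above 1, 34.7% at 10 CPM, and 53.5% without cells lacking a *Dazl* read, a setting chosen after seeing the data). *Syce3*, at a mean just above the filter, dropped out of the test when some libraries were left out. Reads without molecular identifiers, 1 sample per sorted population and the split of lanes limit all single-cell comparisons.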
